A study of Mus musculus with 9 samples.

Results

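The genes described here build and load the class II molecules of the major histocompatibility complex, which display peptides to CD4+ T cells. They are H2-Aa, H2-Ab1 and H2-Eb1 (the classical chains), Cd74 (the invariant chain), Ciita (their transcriptional coactivator), H2-DMa and H2-DMb1 (the peptide exchanger DM), H2-Oa and H2-Ob (its inhibitor DO) and Ifi30 (a lysosomal thiol reductase). They were chosen as 10 named genes of the pathway, by gene symbol. Of these, 9 had a transcript cluster, the array's unit for a gene, with 1 cluster each, among 22206 clusters in all; Cd74 was not analysed here.

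Total RNA of fetal thymic lobes from C57BL/6 mice at e13.5 (embryonic day) was measured on 9 Clariom S arrays, 3 for each of 3 genotypes. The genotypes were wild type, Foxn1933/1089 (here, Foxn1 mutants) and Tbx1neo2/neo2 (here, Tbx1 mutants). Foxn1933/1089 mice carry a different mutant allele on each chromosome of Foxn1, the transcription factor that thymic epithelium needs to differentiate. In Tbx1neo2/neo2 mice both copies of Tbx1, a factor that patterns the pharyngeal pouches, carry an allele known to lower its expression. The titles of the wild-type samples share a prefix with the Foxn1 mutants and not with the Tbx1 mutants, so no wild-type sample is named as a control of the Tbx1 line. The labels do not say whether lobes were pooled or whether samples were separate embryos, so p-values cover only sample-to-sample spread, which may be technical.

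Class II molecules are made by dendritic cells, macrophages, B cells and thymic epithelium, where they present self peptides to developing CD4+ T cells. CIITA does not bind DNA itself: it is recruited to promoters by the RFX complex on an X box and by NF-Y on a Y box a few helical turns away. The chains assemble with the invariant chain, travel to endosomes, and exchange its last fragment for peptide with the help of DM. C57BL/6 mice lack a working H2-Ea gene, so in them H2-Eb1 transcript is made without its partner chain at the cell surface.

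Promoters from RefSeq, on assembly GRCm38.p6, covered 7 of the 9 measured genes with windows from 250 bases before to 50 after the transcription start. The Y box letters, TGATTGG on either strand, were chosen after these windows had been read. They were present in 5 of the 7 genes (H2-Aa, H2-Eb1, H2-DMb1, H2-Oa and H2-Ob) and in 7.82% of all 32851 windows. For the X box, the longest run of bases shared by the H2-Eb1 and H2-DMb1 windows was taken, AACTGATGATGCT, 13 bases long where the next longest shared run had 8. It lies where the X box of class II promoters is known to lie, 28 bases before the first base of the Y box letters in H2-Eb1 and 29 in H2-DMb1, and the motifs do not overlap. On either strand, 3 of all windows (0.00913%) held it without a mismatch, among them the 2 from which it was taken. The nearest match in H2-Ob had 3 mismatches, as near as 6.90% of all windows, and began at base -85, also upstream of a Y box. H2-DMb2 and H2-Eb2, relatives of the members, came within 1 mismatch, as did 0.0731% of windows. The nearest matches in H2-Aa and H2-Oa had 4 mismatches, as did or bettered 39.2% of windows, and those in H2-DMa and Ifi30 had 5. The matches in H2-Aa and H2-Oa were antisense and began at bases 27 and -205. The run itself began at -89 in H2-Eb1 and -92 in H2-DMb1, on the sense strand. Since the run was copied from 2 genes, a poor match does not show that a promoter lacks an X box. No Y box letters were found in the windows of H2-DMa or Ifi30.

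The 120 bases before the start are printed for the 5 genes with Y box letters, which show how the boxes are spaced, and for Ifi30, which has none. Each reads 5′ to 3′ toward the gene, with the Y box letters and the shared run of H2-Eb1 and H2-DMb1 in capitals. The regions are chr17:34287824-34287943 on the minus strand for H2-Aa, chr17:34305747-34305866 on the plus strand for H2-Eb1 and chr17:34153071-34153190 on the plus strand for H2-DMb1. They are chr17:34092259-34092378 on the plus strand for H2-Oa, chr17:34238785-34238904 on the plus strand for H2-Ob and chr8:70766664-70766783 on the minus strand for Ifi30.
H2-Aa: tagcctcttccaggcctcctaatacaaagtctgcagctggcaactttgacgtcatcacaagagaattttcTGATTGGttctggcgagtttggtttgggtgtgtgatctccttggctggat
H2-Eb1: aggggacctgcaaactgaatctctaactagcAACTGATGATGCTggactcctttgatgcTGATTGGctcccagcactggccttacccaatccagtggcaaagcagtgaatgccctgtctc
H2-DMb1: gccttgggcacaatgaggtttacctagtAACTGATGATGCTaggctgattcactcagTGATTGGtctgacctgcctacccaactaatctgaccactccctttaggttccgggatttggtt
H2-Oa: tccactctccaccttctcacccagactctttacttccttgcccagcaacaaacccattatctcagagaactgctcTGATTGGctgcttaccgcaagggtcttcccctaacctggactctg
H2-Ob: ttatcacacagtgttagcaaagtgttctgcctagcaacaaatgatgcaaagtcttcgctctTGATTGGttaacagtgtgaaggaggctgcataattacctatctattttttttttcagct
Ifi30: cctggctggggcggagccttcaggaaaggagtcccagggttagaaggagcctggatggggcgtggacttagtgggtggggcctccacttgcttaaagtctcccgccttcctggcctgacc

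Levels are the deposited log2 values, on which array medians lay between 5.09 and 5.20 and medians of 5222 negative-control probes between 4.27 and 4.94. Leukocyte and thymic epithelial transcripts were low on 2 arrays, those of wild type replicate 1 and of Foxn1 mutant replicate 2. The 8 pan-leukocyte markers averaged 7.48 and 7.79 there against 10.57 to 11.70 on the other 7 arrays. The 10 FOXN1-dependent epithelial markers averaged 5.73 and 6.17 against 8.83 to 9.21. Psmb11, a proteasome subunit of cortical thymic epithelium, read 3.40 and 3.36 against 9.52 to 10.66, below the negative-control median on both arrays. Foxn1 itself gave 7.78, 10.35 and 10.01 on wild-type arrays against 9.02, 8.73 and 9.67 for its mutants. Tbx1 gave 5.85, 4.25 and 4.54 on wild-type arrays against 5.38, 4.80 and 5.30 for its mutants. Both overlapped between groups, and their levels do not check these alleles. In whole lobes, fewer cells of a type and less RNA per cell cannot be told apart. Results that rest on these 2 arrays are given with and without them.

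The classical chains were lowest on these 2 arrays, and their levels overlapped between the 3 genotypes. H2-Ab1, the beta chain of I-A, read 6.41, 11.49 and 10.65 on wild-type arrays 1, 2 and 3, 10.77, 6.76 and 11.27 in those of Foxn1 mutants and 10.44, 10.85 and 10.16 in those of Tbx1 mutants. The lowest values were those of wild type replicate 1 and Foxn1 mutant replicate 2 (log2 differences of -4.36 and -4.01 from the median of the other 7 arrays). H2-Aa, the alpha chain of I-A, read 3.86, 8.06 and 6.88 in the wild-type samples, 6.73, 4.50 and 7.58 in those of Foxn1 mutants and 6.95, 6.93 and 6.52 in those of Tbx1 mutants. The same arrays were lowest, and both lay below the negative-control median, so H2-Aa has only a bound there. H2-Eb1, the beta chain of I-E, read 6.14, 10.03 and 9.35 in the wild-type samples, 8.88, 6.53 and 9.99 in those of Foxn1 mutants and 8.51, 8.70 and 8.39 in those of Tbx1 mutants. Among the other 7 arrays the 3 Tbx1 mutants were the lowest for H2-Eb1, and wild type replicate 2 was the highest for all 3 chains. On those 7 arrays the Tbx1 mutants lay under both wild-type arrays for 13.6% of all clusters. They lay under both Foxn1 mutant arrays for 14.7%, and the share under both genotypes at once was not counted.

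The genes of DM, which strips the invariant-chain fragment from new class II molecules, were lowest on the same 2 arrays. H2-DMa read 5.58, 7.64 and 7.61 in the wild-type samples, 7.0, 5.98 and 7.48 in those of Foxn1 mutants and 6.59, 6.78 and 6.01 in those of Tbx1 mutants. Foxn1 mutant replicate 2 lay only just under Tbx1 mutant replicate 3. H2-DMb1 read 3.53, 7.13 and 6.98 in the wild-type samples, 6.34, 4.73 and 7.61 in those of Foxn1 mutants and 5.58, 6.15 and 5.97 in those of Tbx1 mutants. Wild type replicate 1 was below the negative-control median for H2-DMb1. On the other 7 arrays all 3 Tbx1 mutants were under all 4 arrays of the other genotypes for both DM genes. Of all clusters, 13.6% had them under wild type there and 14.7% under the Foxn1 mutants, with the joint share not counted. H2-DMb2, a near copy of H2-DMb1 that is no member, read 5.68, 9.03 and 8.54 in the wild-type samples, 8.10, 5.56 and 9.87 in those of Foxn1 mutants and 7.93, 8.03 and 6.85 in those of Tbx1 mutants. Whether probes of the DM beta genes bind each other's transcripts was not tested.

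The genes of DO, which holds DM in check mainly in B cells and thymic epithelium, stayed near the negative controls. H2-Oa read 3.57, 4.96 and 5.26 in the wild-type samples, 4.84, 3.72 and 5.50 in those of Foxn1 mutants and 4.89, 4.71 and 4.47 in those of Tbx1 mutants, above the negative-control median on 6 of 9 arrays. Its lowest arrays were again wild type replicate 1 and Foxn1 mutant replicate 2. H2-Ob read 4.11, 4.10 and 3.61 in the wild-type samples, 4.53, 4.22 and 3.95 in those of Foxn1 mutants and 3.72, 4.08 and 3.40 in those of Tbx1 mutants. It passed the negative-control median on 1 array, Foxn1 mutant replicate 1, so it was not above background on the rest and its differences carry no direction.

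Ifi30 and Ciita, the latter near background, showed little of the drop on the 2 arrays. From the median of the other 7 arrays Ifi30 differed by -0.45 and -0.56 there and Ciita by -0.09 and -0.34. H2-Oa, at a like level on those 7 (4.47 to 5.50 against 4.83 to 5.53 for Ciita), differed by -1.33 and -1.18. On the 2 arrays H2-Oa also lay below the negative-control median, so it has only a bound there. Whether Ciita fell cannot be told from these values. Ciita, the coactivator on which class II transcription depends, read 4.85, 5.53 and 4.84 in the wild-type samples, 4.83, 4.59 and 4.94 in those of Foxn1 mutants and 4.85, 5.34 and 5.13 in those of Tbx1 mutants. It passed the negative-control median on 7 of 9 arrays and never the negative controls' 95th percentile. The arrays under that median were wild type replicate 1 and Foxn1 mutant replicate 2, where Ciita has only a bound. Ifi30, which reduces disulfide bonds of antigens in lysosomes, read 9.57, 10.01 and 10.01 in the wild-type samples, 9.62, 9.45 and 10.03 in those of Foxn1 mutants and 10.11, 9.41 and 9.88 in those of Tbx1 mutants. Its whole range was 0.70 log2 units, and Tbx1 mutant replicate 2 was its lowest array. The 95th percentile of the negative controls, 8.03 to 9.70, was passed on 7 arrays by H2-Ab1, on 4 by H2-Eb1, on 8 by Ifi30 and on none by the other 6 genes.

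**Figure D1:**
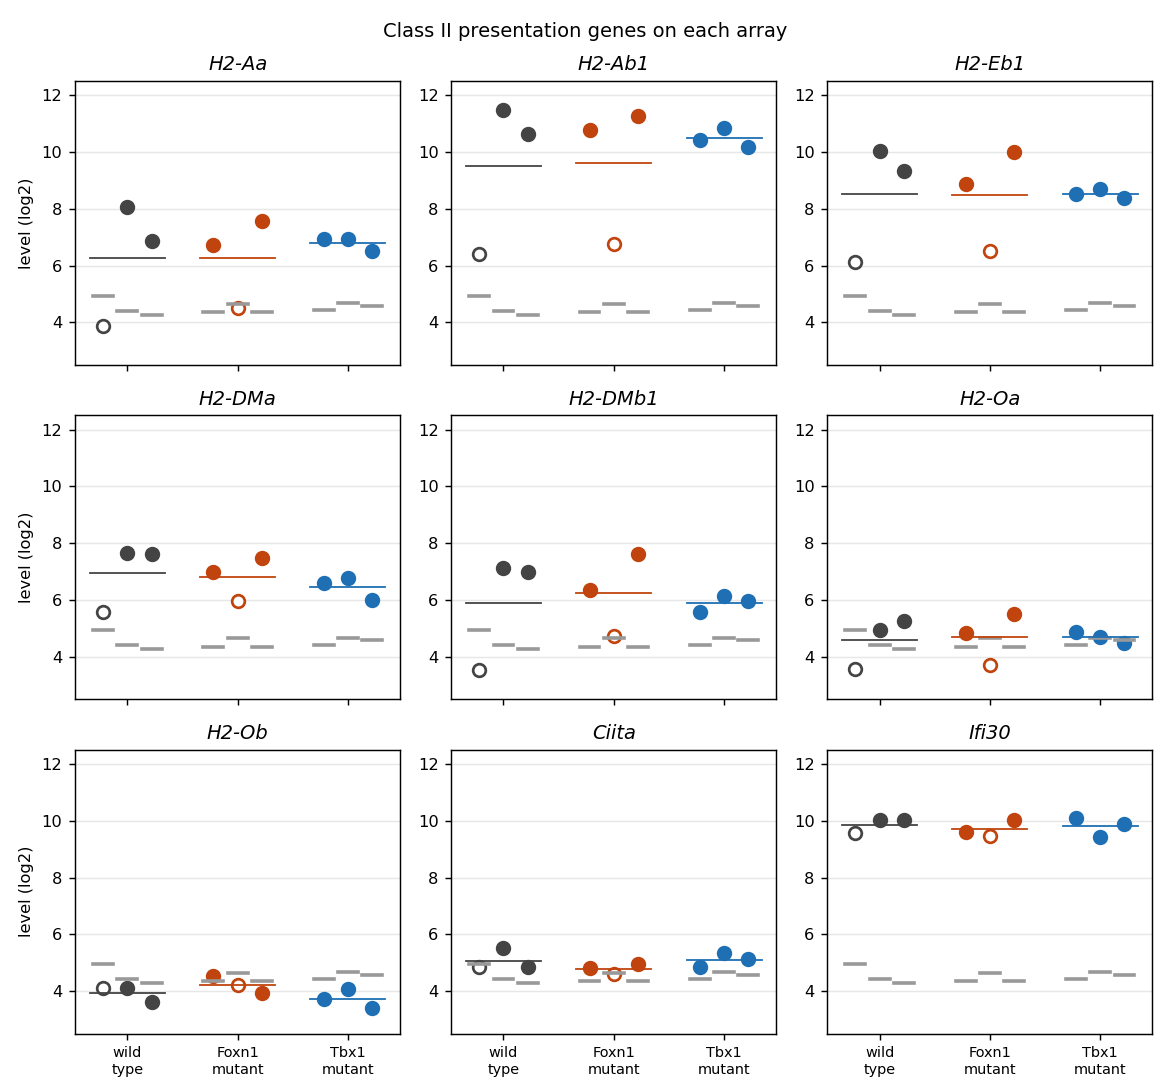
Log2 level (vertical axis) of the 9 measured class II genes on each of the 9 arrays, by genotype (horizontal axis). Points are arrays, open points wild-type array 1 and Foxn1-mutant array 2, coloured lines the mean of 3 arrays and grey dashes each array's negative-control median. The open points lie below all others for 6 genes and not for Ifi30, nor for H2-Ob and Ciita, which lay near background.

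Both of these arrays lay below all 7 others for 6 of the 9 genes (H2-Aa, H2-Ab1, H2-Eb1, H2-DMa, H2-DMb1 and H2-Oa) and for 12.1% of all clusters (2694 of 22206). Some marker lists of the cell types in the lobes were low on these arrays and others were not. All 8 pan-leukocyte markers and 7 of 8 T lineage markers had both arrays below the rest. The T lineage markers averaged 4.14 and 4.40 on the 2 arrays against 6.16 to 8.09 on the rest, and the innate lymphoid markers 5.02 and 5.23 against 5.51 to 6.46. The epithelial identity markers averaged 8.74 and 8.90 against 9.94 to 10.73, with 6 of 11 below the rest on both arrays, and of the FOXN1-dependent list 7 of 10 were. Epcam, an adhesion protein of epithelium, was not low there (8.33 and 8.82 against 7.97 to 8.83), nor were Cxcl12 and Cldn4. The 10 measured macrophage markers averaged 6.58 and 7.32 against 6.27 to 6.94, and Csf1r, the receptor that defines these cells, read 8.59 and 10.20 against 8.67 to 9.04. The 7 measured B cell markers averaged 5.30 and 5.39 against 5.11 to 5.57, with 3 never above the negative-control median. Of the 10 dendritic cell markers 6 never passed that median, Flt3 and Zbtb46 among them, and the list averaged 3.77 and 3.66 against 3.48 to 3.95. Low class II levels thus went with low leukocyte and T lineage markers and with most, not all, epithelial markers, and not with low macrophage markers. The 6 dendritic cell and 3 B cell markers that never passed background could not show a drop, so these lists say little. The part of each cell type in it was not tested.

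**Figure D2:**
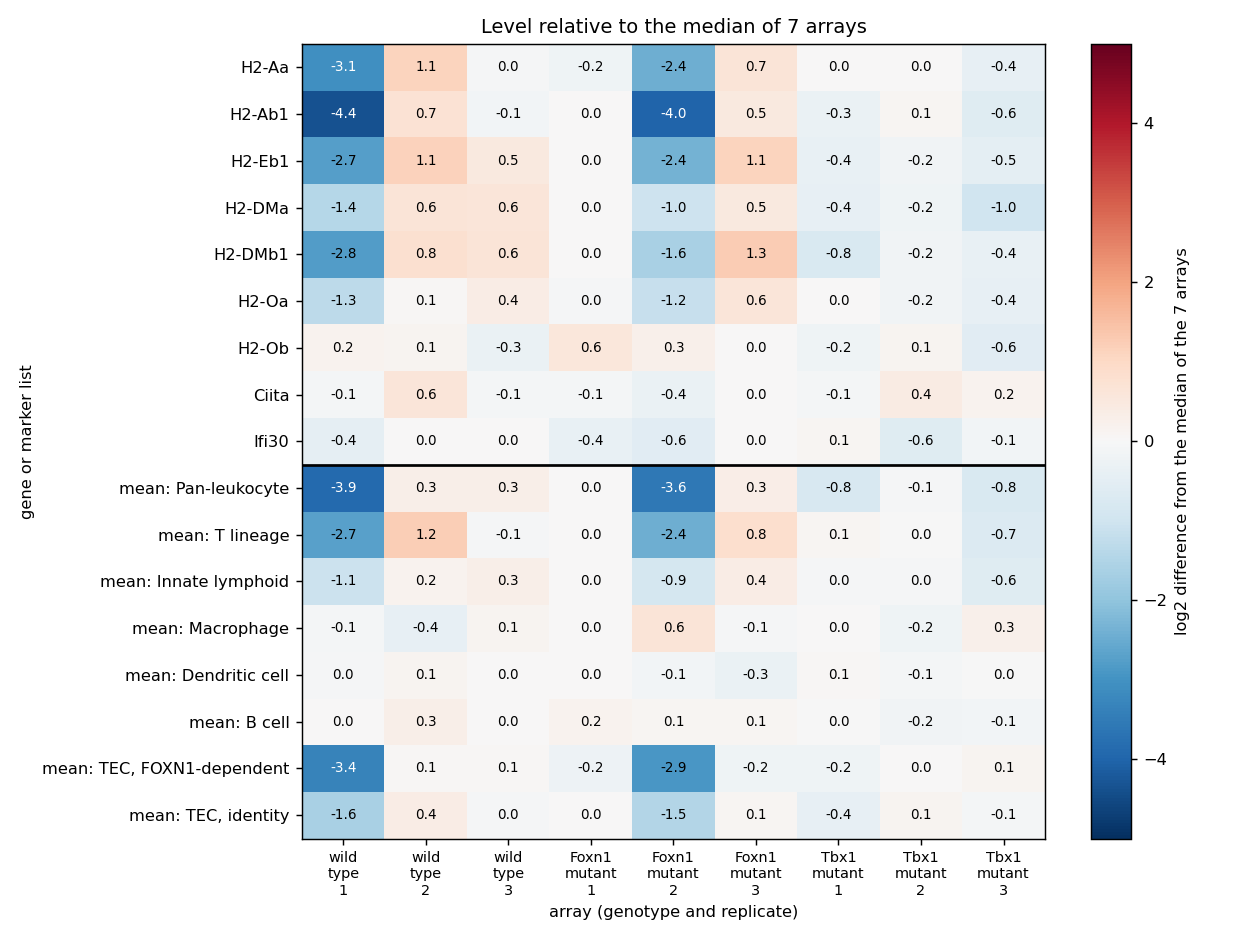
Log2 difference of each array (columns) from the median of the 7 other arrays than wild type replicate 1 and Foxn1 mutant replicate 2, for the class II genes (upper rows) and the mean of each marker list (lower rows; TEC, thymic epithelial cells). Blue is lower and red higher, on a scale from 5 below to 5 above. The columns of those 2 arrays are blue for 6 class II genes and for the pan-leukocyte, T lineage, innate lymphoid and both epithelial lists. Ifi30 and Ciita are also below 0 there, by less.

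Foxn1 mutants were compared with wild type for the effect of the Foxn1 alleles. None of the 9 genes was called, at a background of 0% of 22206 clusters (limma, Benjamini-Hochberg adjusted p under 0.05), and the members' lowest adjusted p was 1. At an unadjusted p under 0.05 there were also 0 members, against 2.28% of clusters higher and 1.77% lower. H2-Ab1 differed by 0.08 ± 1.40 (SE; 95% interval -3.05 to 3.22), H2-Aa by 0.01 ± 1.03 (-2.30 to 2.31) and H2-Eb1 by -0.04 ± 1.04 (-2.37 to 2.29). These intervals span several log2 units, and H2-Aa, which has only a bound on both low arrays, gave -0.30 with values raised to the negative-control median. Narrower ones were those of Ciita, at -0.29 ± 0.25 (-0.84 to 0.27), and Ifi30, at -0.16 ± 0.26 (-0.74 to 0.42). Ciita, unlike Ifi30, lay near background and has only a bound on both low arrays, so its interval rests in part on bounds. The median over the members was 0.01, beside 0.018 over all clusters, with 5 genes higher (52.4% of clusters were) and 4 lower (47.6%). Counts of members by sign include H2-Ob, whose own sign carries no direction.

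Without the 2 arrays, 2 wild-type, 2 Foxn1 mutant and 3 Tbx1 mutant arrays remained. No member was called there either (background 0%). H2-Ab1 differed by -0.05 ± 0.35 (-0.86 to 0.76), H2-Eb1 by -0.25 ± 0.38 (-1.13 to 0.62) and Ciita by -0.30 ± 0.29 (-0.96 to 0.36). The median was -0.19 with 7 of 9 genes lower, beside 0.005 over all clusters and 49.3% of them lower. H2-DMa, at -0.38 ± 0.30, was the 1 member whose arrays did not overlap, where 17.1% of clusters were separated in that direction.

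Tbx1 mutants were compared with wild type in the same fit, with the same wild-type arrays. None of the 9 genes was called, where 0.0135% of clusters (3) were called, and the members' lowest adjusted p was again 1. H2-Ab1 was 0.97 ± 1.40 higher (-2.17 to 4.11), H2-Aa 0.54 ± 1.03 higher (-1.77 to 2.84) and H2-DMa 0.48 ± 0.57 lower (-1.77 to 0.80 as a signed difference), none beyond the spread. H2-Eb1 differed by 0.02. H2-Aa, H2-DMb1, H2-Oa, Ciita and H2-Ob were below the negative-control median on wild type replicate 1, so their estimates rest on a bound. With values raised to that median H2-Aa gave 0.17, and H2-DMb1 -0.45 in place of 0.02. H2-Oa gave -0.32 in place of 0.09, and Ciita 0.01 in place of 0.04. The median was 0.02, beside 0.015 over all clusters.

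Leaving out the 2 arrays turned the sign of 6 of the 9 differences. All 9 estimates were then below 0, that of H2-Ob (-0.12) without a direction, where 51.5% of clusters were lower in the Tbx1 mutants. Wild type replicate 1 alone sets these estimates. The errors depend on both arrays: with only wild type replicate 1 left out, the limma adjusted p was 0.958 for H2-DMa, H2-Eb1 and H2-DMb1 alike. H2-DMa was 1.16 lower (log2 difference -1.16 ± 0.28, -1.80 to -0.53; limma adjusted p = 0.375). H2-Eb1 was also 1.16 lower (-1.16 ± 0.35, -1.96 to -0.36; limma adjusted p = 0.432). H2-DMb1 shared that estimate (-1.16 ± 0.36, -1.98 to -0.33; limma adjusted p = 0.451). None passed the adjusted threshold, where 0.00901% of clusters (2) did. Of the 9 genes 3 had an unadjusted p under 0.05 by limma on the lower side, against 4.51% of clusters. H2-Eb1, H2-DMa, H2-DMb1 and H2-Oa had every Tbx1 mutant under both wild-type arrays, a separation that 13.6% of clusters showed in that direction. Of these, H2-Oa lay near background, and under the negative-control median on Tbx1 mutant replicate 3. The smaller estimates were -0.67 ± 0.39 for H2-Aa, -0.59 ± 0.32 for H2-Ab1, -0.42 ± 0.26 for H2-Oa, -0.21 ± 0.26 for Ifi30 and -0.07 ± 0.26 for Ciita. The members' median was -0.59, beside -0.012 over all clusters.

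Leukocyte markers were also lower in the Tbx1 mutants on these 7 arrays, though none passed the adjusted threshold, and not with all 9. All 8 pan-leukocyte markers were lower in the Tbx1 mutants than in wild type (median -0.75), 5 of them at an unadjusted p under 0.05 by limma. Ptprc, the pan-leukocyte phosphatase CD45, was lower by an estimate of -1.32 ± 0.39 (limma adjusted p = 0.432). All 8 measured T lineage markers were lower (median -0.85), 1 at an unadjusted p under 0.05. The dendritic cell list had 5 of 10 lower (median 0.04). Its defining marker Itgax, an integrin, gave -1.0 ± 0.28 (limma adjusted p = 0.424) but was over the negative-control median on only 3 of 9 arrays. The B cell list had a median of -0.40 (5 of 7 lower), the innate lymphoid list -0.35 (6 of 7 lower) and the epithelial identity list -0.23 (8 of 11 lower). The FOXN1-dependent epithelial list had a median of -0.13 with 6 of 10 lower, the macrophage list 0.20 with 8 of 10 higher, and Csf1r 0.15 ± 0.20. With all 9 arrays 7 of 8 pan-leukocyte markers were instead higher in the Tbx1 mutants (median 0.56; Ptprc 0.57 ± 1.85), as were 5 of 8 T lineage markers (0.09), 9 of 10 FOXN1-dependent markers (0.96) and 8 of 11 epithelial identity markers (0.27). The part of these cells in the lower class II values was not tested.

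Foxn1 mutants were then set against Tbx1 mutants, which share no alleles named in the labels. None of the 9 genes was called with all arrays (background 0%; members' lowest adjusted p 0.999), the median being -0.06 beside 0.008 over all clusters. H2-Ob had the lowest unadjusted p of them, at 0.50 ± 0.26, but lay at the negative-control level. Without the 2 arrays, 8 of 9 were higher in the Foxn1 mutants (median 0.51; 51.3% of clusters were higher), and no member was called (background 0.00901%). H2-DMb1 was 1.07 ± 0.36 higher (limma adjusted p = 0.48), H2-Eb1 0.91 ± 0.35 (limma adjusted p = 0.534) and H2-DMa 0.78 ± 0.28 (limma adjusted p = 0.505). Their arrays did not overlap between the mutants, as for 14.7% of clusters in that direction. With only Foxn1 mutant replicate 2 left out these estimates were the same and the limma adjusted p was 0.983 for each. Ptprc was 1.28 ± 0.39 higher on the 7 arrays, with all 8 pan-leukocyte markers higher, but with all 9 arrays it gave -0.79 ± 1.85 and 7 of 8 were lower. A test for any difference among the 3 genotypes called none of the 9 (moderated F test of limma, lowest adjusted p 1; 0.00901% of clusters called), and none without the 2 arrays (lowest adjusted p 0.484, for H2-DMa; 0.00901% called).

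**Figure D3:**
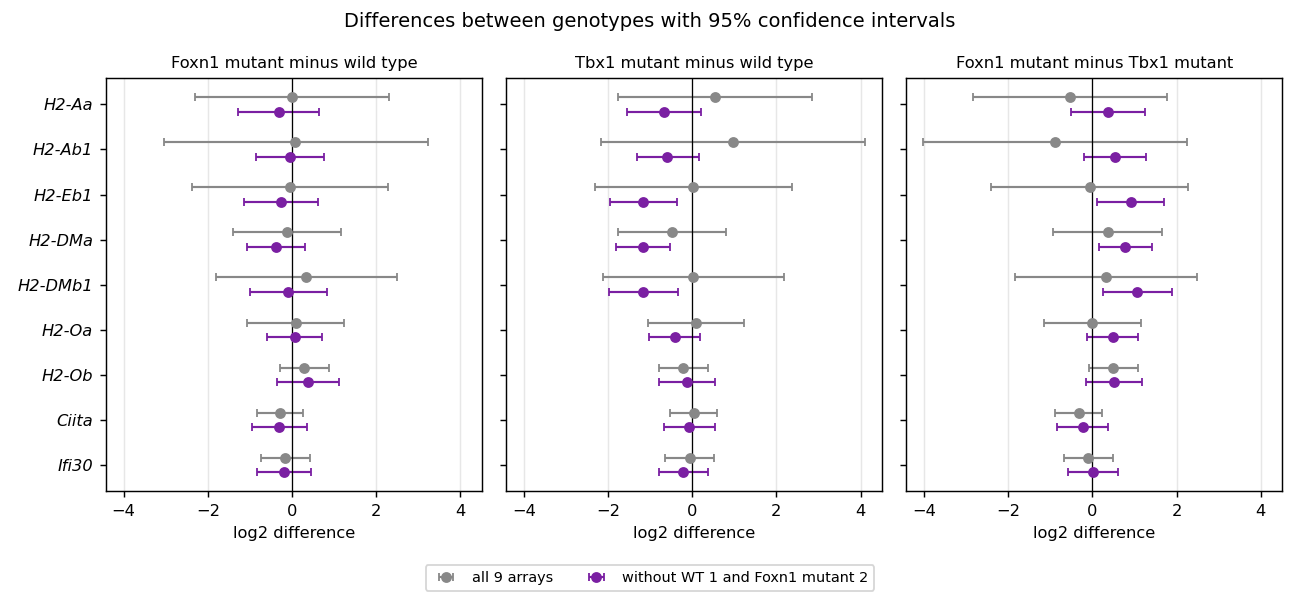
Log2 difference (horizontal axis) with its 95% confidence interval for each class II gene (vertical axis) in the 3 comparisons, from all 9 arrays (grey) and without wild type replicate 1 and Foxn1 mutant replicate 2 (purple). All grey intervals include 0. Among the purple ones, those of H2-Eb1, H2-DMa and H2-DMb1 exclude 0 in both comparisons with the Tbx1 mutants before adjustment for the number of clusters tested.

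The sample titles carry 3 codes, called A, B and C here, whose meaning no source used here gives. Each genotype comparison was therefore also read within a code. Foxn1 mutant replicate 2 is in A and wild type replicate 1 in C, so both codes hold an array that stands apart. H2-Ab1 was lower in Foxn1 mutants than in wild type by a log2 difference of -3.90 in A (1 array against 1) and -0.46 in B (2 against 1). For Tbx1 mutants against wild type it gave -0.21 in A (1 against 1) and 4.10 in C (2 against 1). H2-DMa gave -1.02 in A and 0.81 in C, H2-DMb1 -1.40 and 2.53, and H2-Eb1 -0.84 and 2.40, so none of these kept its sign between codes. Foxn1 mutants against Tbx1 mutants could be read in A alone, where H2-Ab1 gave -3.69. With so few arrays these are values without a test.

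Across the 7 arrays, 5 members (H2-Aa, H2-Ab1, H2-Eb1, H2-DMa and H2-DMb1) were set against 4 genes of 3 cell types, which made 20 relations. The genes were Ptprc for leukocytes, Csf1r for macrophages, and Epcam and Psmb11 for thymic epithelium. H2-DMa followed Ptprc most closely, with a Pearson r of 0.92 (exact permutation p = 0.00179, adjusted over 20 p = 0.0357) and a Spearman rho of 0.89 (exact permutation p = 0.0123, adjusted p = 0.159). Without the 2 arrays farthest from the median of Ptprc, r was 0.76. H2-DMb1 gave an r of 0.84 with Ptprc (exact permutation p = 0.0165, adjusted p = 0.101; rho 0.86, exact permutation p = 0.0238, adjusted p = 0.159), and 0.80 without the 2 farthest arrays. H2-Eb1 gave 0.78 (exact permutation p = 0.044, adjusted p = 0.176; rho 0.86, exact permutation p = 0.0238, adjusted p = 0.159), and 0.58 without them. H2-DMa with Ptprc was the only relation of the 20 with an adjusted p under 0.05, and only by Pearson's r. H2-DMa also gave 0.87 with Epcam (exact permutation p = 0.00774, adjusted p = 0.0774; rho 0.82, exact permutation p = 0.0341, adjusted p = 0.171; 0.60 without 2 arrays). H2-Ab1 gave 0.84 with Epcam (exact permutation p = 0.0202, adjusted p = 0.101, rho 0.68, 0.43 without 2 arrays) and 0.73 with Ptprc (0.02 without 2 arrays). H2-Aa gave 0.66 with Epcam and 0.49 with Ptprc (-0.14 and 0.13 without 2 arrays). With Psmb11 the 5 members gave 0.35 to 0.65. With Csf1r they gave -0.60 to -0.32, but 0.47 to 0.90 without the 2 arrays farthest from its median. The Tbx1 mutants were low for Ptprc, H2-DMa and Epcam alike, so relations with Ptprc and Epcam contain the difference between genotypes. After genotype means were subtracted, r with Ptprc was 0.79 for H2-DMa, 0.48 for H2-DMb1, 0.42 for H2-Ab1, 0.31 for H2-Eb1 and 0.12 for H2-Aa. With Epcam it was 0.72 for H2-Ab1, 0.60 for H2-DMa, 0.44 for H2-Aa, 0.24 for H2-Eb1 (0.73 before) and -0.02 for H2-DMb1 (0.63 before). After title code means were subtracted instead, r with Ptprc was 0.90, 0.77, 0.60, 0.64 and 0.19, in the same order of genes. With Epcam it was then 0.73, 0.82, 0.40, 0.47 and 0.36, in the order given for Epcam. These values, chosen after the others were seen, are descriptions without a test.

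**Figure D4:**
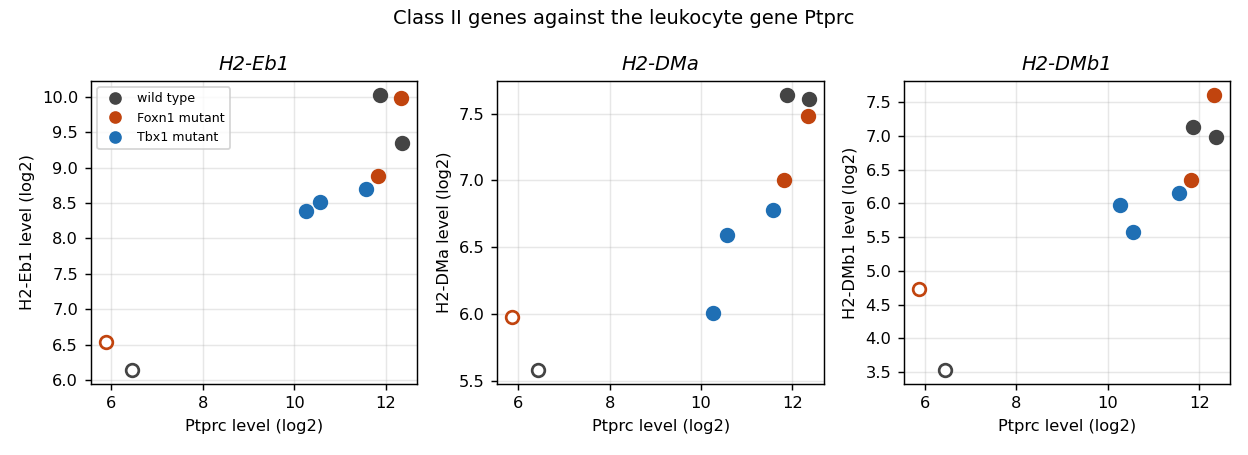
Log2 levels of H2-Eb1, H2-DMa and H2-DMb1 (vertical axes) against that of the leukocyte gene Ptprc (horizontal axes). Points are the 9 arrays coloured by genotype, open points being wild-type array 1 and Foxn1-mutant array 2. The open points lie at Ptprc levels of 6.44 and 5.87, and the other 7 arrays between 10.26 and 12.36, with the 3 Tbx1 mutants at the lower end.

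The genes with the array profile most like the classical chains were sought by Pearson correlation with the mean centred profile of H2-Aa, H2-Ab1 and H2-Eb1, over 11275 genes above the negative-control median on at least 5 arrays. Over 9 arrays the first 5 were Pglyrp2 (0.994), Fam169b (0.992), Dusp5 (0.991), Cdk20 (0.991) and Cd3g (0.990), the last a chain of the T cell receptor complex. Cd3g read 3.73 and 3.79 on the 2 low arrays and 9.79 to 13.25 on the rest. Over the other 7 arrays these 5 genes still gave 0.914 to 0.956 (Cd3g 0.919). Over the other 7 arrays the first 5 were Lat (0.987), an adaptor of T cell receptor signalling, Fam169a (0.979), Rnh1 (0.978), Edar (0.973) and Klhl21 (0.971), with no gene in both sets. Over all 9 arrays this second set did not hold as a whole: Lat gave 0.965, Klhl21 0.913, Rnh1 0.813, Edar 0.312 and Fam169a -0.488. Over the 7 arrays H2-DMb1 gave 0.849, H2-DMa 0.841 and H2-Oa 0.661, while Ciita gave 0.40, H2-Ob 0.367 and Ifi30 0.298. Of the defining markers, Epcam gave 0.766, Ptprc 0.698, Itgax 0.623, Psmb11 0.488 and Csf1r -0.561 over the 7 arrays. Over all 9 these were 0.056, 0.965, 0.669, 0.960 and -0.409. The median over the genes compared was 0.057 over the 7 arrays.

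Along chromosome 17, in gene order of GRCm38.p6, 14 protein-coding genes run from H2-Oa to H2-Eb2, of which 7 are members. Of the other 7, H2-DMb2, Psmb9, Tap1, Psmb8 and Tap2 also had both low arrays below all others, as did 12.1% of all clusters. Psmb9 and Psmb8, subunits of the immunoproteasome, read 3.71 and 3.64 against 9.35 to 11.87 and 4.61 and 5.26 against 7.62 to 9.78. Tap1, which with Tap2 carries peptides to class I molecules, read 5.35 and 5.21 against 6.63 to 8.01. Tap2 read 4.16 and 3.97 against 4.25 to 5.09, a small gap near background. Both of its low values were under the negative-control median. Brd2, a broadly expressed chromatin reader in the same stretch, read 14.78 and 14.57 against 14.04 to 14.67 and did not share the drop. H2-Eb2, which passed the negative-control median on 1 array, could not show one.

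**Figure D5:**
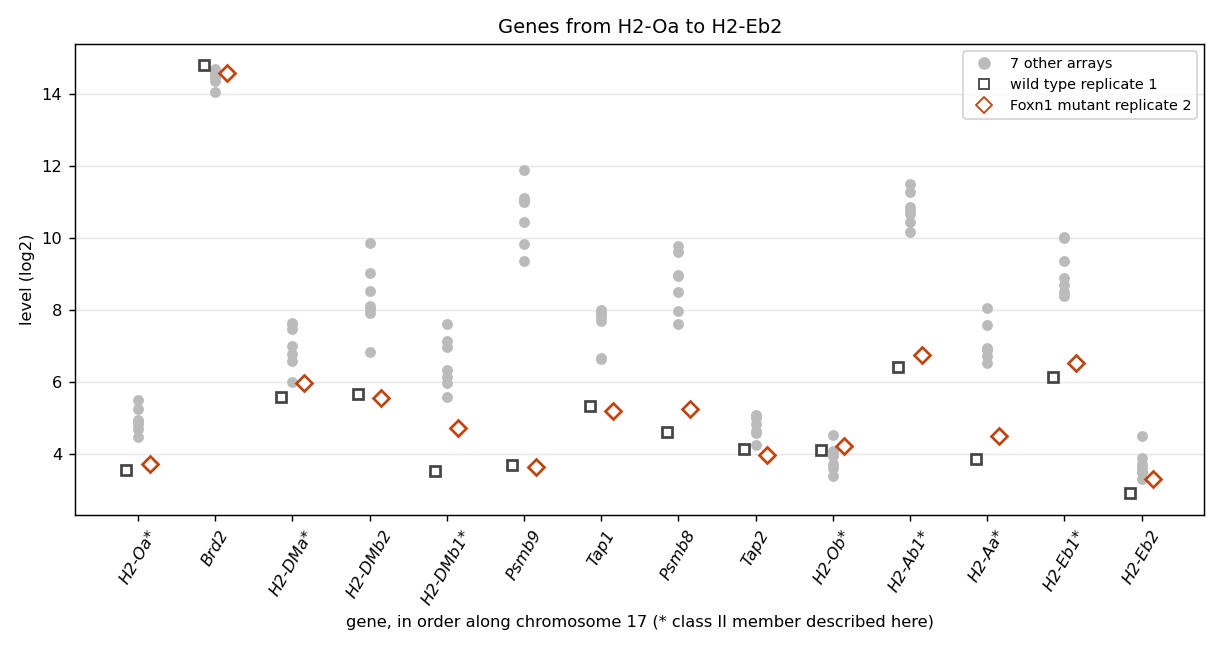
Log2 level (vertical axis) of the 14 protein-coding genes from H2-Oa to H2-Eb2 in their order along chromosome 17 (horizontal axis, not to scale; asterisks mark members). Grey points are 7 arrays, squares wild type replicate 1 and diamonds Foxn1 mutant replicate 2. The squares and diamonds lie below the grey points for 11 of the 14 genes and not for Brd2, nor for H2-Ob and H2-Eb2, which lay near background. Of the 11, H2-Oa and Tap2 also lay near background, Tap2 with a small gap.

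The rest of the pathway was followed through 42 measured genes in 5 lists, of which 0 were called in each comparison, with or without the 2 arrays. For Foxn1 mutants against wild type, 21 were higher and 21 lower (median 0.01) and 0 had an unadjusted p under 0.05. The lowest p-values belonged to Smarca4, a chromatin remodeller that CIITA recruits, at -0.54 ± 0.25, and Rfxank, a subunit of the RFX complex, at 0.51 ± 0.26 (limma adjusted p = 1 for both). For Tbx1 mutants against wild type, 20 were higher and 22 lower (median -0.01). Lgmn, the endosomal protease legumain, gave -1.0 ± 0.35 (limma adjusted p = 1) and was the 1 gene with an unadjusted p under 0.05. Lgmn read 15.64, 14.77 and 14.94 on the wild-type arrays against 14.77, 13.74 and 13.86 in those of Tbx1 mutants, with Tbx1 mutant replicate 1 level with wild type replicate 2. The next was Socs1, an inhibitor of interferon signalling, at 0.64 ± 0.29, which was below the negative-control median on all arrays. For Foxn1 against Tbx1 mutants, Lgmn gave 0.89 ± 0.35 and the lysosomal protease Ctsz 0.54 ± 0.24 (limma adjusted p = 0.999 for both). Without the 2 arrays Lgmn gave -0.73 ± 0.32 for Tbx1 mutants against wild type (limma adjusted p = 0.617), no longer at an unadjusted p under 0.05 by limma. There 13 pathway genes were higher and 29 lower (median -0.14), the lowest p-values being those of Cd37, a leukocyte tetraspanin, at -1.69 ± 0.30 (limma adjusted p = 0.227) and of Jak1, a kinase of interferon signalling, at -0.68 ± 0.27 (limma adjusted p = 0.581). For Foxn1 against Tbx1 mutants Cd37 gave 1.2 ± 0.30 (limma adjusted p = 0.373) and H2-Eb2 0.73 ± 0.24 (limma adjusted p = 0.473). H2-DMb2, at 1.38 ± 0.53, and Ctsz, at 0.65 ± 0.26, also had an unadjusted p under 0.05 by limma there. For Foxn1 mutants against wild type 17 were higher and 25 lower (median -0.07). The lowest p-values were those of H2-Eb2, at 0.59 ± 0.27, and Smarca4, at -0.59 ± 0.27 (limma adjusted p = 0.87 for both). H2-Eb2 passed the negative-control median on only 1 array.

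By role, these lists followed the 2 low arrays to different degrees. The 10 transcription factor genes (RFX, NF-Y and CREB components) averaged 9.05 and 9.13 on those arrays against 8.92 to 9.29 on the rest. The 9 measured genes of the interferon gamma route to Ciita averaged 5.66 and 5.91 against 6.23 to 6.55. Within it Irf1, which activates a Ciita promoter, read 5.57 and 4.66 against 6.11 to 7.32, while Ifng itself never passed the negative-control median. The 12 measured proteases and lysosomal proteins averaged 10.64 and 10.71 against 11.39 to 11.75. Prss16, a protease of cortical thymic epithelium, carried most of that gap (4.24 and 4.45 against 13.87 to 14.43). The other 11 averaged 11.22 and 11.28 against 11.14 to 11.55, a split made after the values were seen. Sppl2a (9.02 and 9.22 against 10.40 to 11.02), Ctsl, Lamp2 and Ctse also had both arrays below the rest, which with Prss16 made 5 of the 12. Ctsb, Lgmn, Lamp1 and Cst3 were each highest on the 2 arrays (Ctsb 14.63 and 14.87 against 13.67 to 14.00). The mean of the 11 thus holds changes in both directions. The 9 measured genes of traffic and costimulation averaged 7.0 and 7.12 against 7.79 to 8.22, and of these Cd37 read 4.69 and 4.53 against 9.66 to 11.91.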

How the data were processed

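Total RNA of fetal thymic lobes was amplified, biotin-labelled and hybridised to Clariom S arrays, per the labels. The authors deposited normalized log2 values, 1 column per array, which were used as given; the scale was read from their range (1.47 to 19.92), and the software and normalization method are not stated in any source used. Of 28846 features, 6640 controls were left out. Gene symbols came from the platform annotation (19572 clusters had 1 symbol).

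The fit was a limma 3.58.1 linear model of the 3 genotypes over all 9 arrays in R 4.3.3, with empirical Bayes moderation, two-sided tests and Benjamini-Hochberg adjustment over 22206 clusters (threshold 0.05). The script was tested on simulated data. Errors are SEs and intervals 95%; the number of arrays limits the precision. Members, lists, marker genes and the 2 arrays left out were chosen with earlier results of these data known. Named genes are all members with a cluster, the 2 pathway genes of lowest p per comparison where none was called, the 5 most alike in profile over 9 and over 7 arrays (the rule also names Cd74, not analysed here), and the defining markers; other genes were named after their values were seen. Some genes of the lists were not analysed here, and each list's counts and means cover its measured genes. Promoter motifs were searched and exact permutations run in Python 3.11.15 with scipy 1.17.1. Alternatives were other normalizations, filters, moderation, array weights, title code blocks and arrays left out.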

Additional observations from a re-analysis of the deposited data

How the results depend on the processing

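No member was called under any of the 20 alternatives. Of 531 differences recomputed for single members, 444 kept their sign and 87 turned it, with a lowest limma adjusted p of 0.375, so the signs of most members are not settled. The members' median ranged from -0.80 to 0.57 for Foxn1 mutants minus wild type, from -0.59 to 0.61 for Tbx1 mutants minus wild type and from -1.03 to 0.51 for Foxn1 minus Tbx1 mutants. The differences that turned follow; beyond what the construction of an alternative shows, the cause was not tested. Quantile normalization, the 2 filters on low means, trended robust moderation and fits of only 2 genotypes turned none (the filter at the median kept 6 members). With array weights, lowest for wild-type array 1 (0.339) and Foxn1-mutant array 2 (0.462), the log2 differences that turned sign were -0.38 for H2-Aa, -0.18 for H2-Ab1, -0.10 for H2-DMb1 and -0.01 for H2-Oa in Foxn1 mutants minus wild type. In Tbx1 mutants minus wild type they were -0.30 for H2-Aa, -0.06 for H2-Ab1, -0.76 for H2-Eb1, -0.04 for Ciita, -0.71 for H2-DMb1 and -0.24 for H2-Oa. In Foxn1 minus Tbx1 mutants they were 0.39 for H2-Eb1 and 0.23 for H2-Oa. With the title code as a fixed block, the log2 differences that turned sign were -1.22 for H2-Aa, -1.49 for H2-Ab1, -0.61 for H2-DMb1 and -0.42 for H2-Oa in Foxn1 mutants minus wild type. In Tbx1 mutants minus wild type they were 0.12 for H2-DMa and 0.14 for Ifi30. In Foxn1 minus Tbx1 mutants they were -0.85 for H2-DMa and -1.59 for H2-DMb1. The members' median in that last comparison was then -1.03 in place of -0.06. With the code as a random block, the log2 differences that turned sign were -0.12 for H2-Aa and -0.07 for H2-Ab1 in Foxn1 mutants minus wild type. With values under the negative-control median raised to it, the log2 differences that turned sign were -0.30 for H2-Aa, -0.12 for H2-DMb1, -0.06 for H2-Oa and -0.03 for H2-Ob in Foxn1 mutants minus wild type. In Tbx1 mutants minus wild type they were -0.45 for H2-DMb1, -0.32 for H2-Oa and 0.02 for H2-Ob. In Foxn1 minus Tbx1 mutants they were 0.27 for H2-Oa and -0.05 for H2-Ob. With wild type replicate 1 and Foxn1 mutant replicate 2 both left out, the log2 differences that turned sign were -0.31 for H2-Aa, -0.05 for H2-Ab1 and -0.09 for H2-DMb1 in Foxn1 mutants minus wild type. In Tbx1 mutants minus wild type they were -0.67 for H2-Aa, -0.59 for H2-Ab1, -1.16 for H2-Eb1, -0.07 for Ciita, -1.16 for H2-DMb1 and -0.42 for H2-Oa. In Foxn1 minus Tbx1 mutants they were 0.36 for H2-Aa, 0.54 for H2-Ab1, 0.91 for H2-Eb1, 0.48 for H2-Oa and 0.02 for Ifi30. With each array centred on its median, H2-Eb1 turned to 0.01 in Foxn1 mutants minus wild type. Leaving out each array in turn, the members that turned sign ranged, in Foxn1 mutants minus wild type, from -1.20 to 0.90 for H2-Aa, -1.47 to 1.51 for H2-Ab1, -1.22 to 0.93 for H2-Eb1, -0.80 to 0.30 for H2-DMa, -0.83 to 1.09 for H2-DMb1 and -0.43 to 0.57 for H2-Oa. In Tbx1 mutants minus wild type they ranged from -0.67 to 1.43 for H2-Aa, -0.59 to 1.95 for H2-Ab1, -1.16 to 0.79 for H2-Eb1, -0.08 to 0.27 for Ciita, -1.16 to 0.65 for H2-DMb1, -0.42 to 0.42 for H2-Oa and -0.22 to 0.13 for Ifi30. In Foxn1 minus Tbx1 mutants they ranged from -1.19 to 0.36 for H2-Aa, -1.72 to 0.54 for H2-Ab1, -0.83 to 0.91 for H2-Eb1, -0.37 to 1.07 for H2-DMb1, -0.41 to 0.48 for H2-Oa and -0.30 to 0.06 for Ifi30. The averaging of several clusters of a gene was not run, since each member has 1. No paired analysis was possible because the labels give the genotypes no shared replicate numbers; the title codes that some arrays share entered as the blocks above. Signal limits H2-Ob, Ciita and H2-Oa, which lay at or near the negative-control level.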
